A study of Mus musculus with 33 samples.

Results

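Microdissected whole cortex of the mouse thymus (7 arrays) was compared with sorted cortical thymocytes (5 arrays), 12 of the 33 arrays of the series, across all probe sets. The arrays were chosen by their titles alone. The comparison asks which transcripts the non-thymocyte cells of the cortex add to those of the thymocytes. All arrays held RNA of male C57bl6/J mice (C57BL6 in the sample labels), 4 to 6 weeks old, with no treatment and no altered gene named. Whole cortex was cut from tissue, and cortical thymocytes were sorted for CD45+ cells that were CD3-/lo and carried CD90 or CD117. Other arrays were used beside this comparison: microdissected whole medulla (n = 7), sorted medullary thymocytes gated as CD3hi AND CD45+ (n = 5), and microdissected sub-capsular, central and peri-medullary cortex (n = 3 each), together called the subregion arrays. The RNA kits of tissue (RNAqueous Micro) and sorted cells (RNeasy Mini) differed, and in every value below the effect of the kit and that of the kind of sample cannot be told apart. The titles number the arrays as biological replicates, but no label ties them to animals. Some arrays of a group may share an animal, and the p-values, which are then too small, measure only the spread between these arrays.

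The thymic cortex is a dense mass of immature thymocytes held in a mesh of epithelial cells, with fibroblasts, capillaries and macrophages between them. Its epithelium expresses the Notch ligand that commits progenitors to the T lineage, cytokines and chemokines that feed and hold them, and a proteolytic machinery that makes the peptides for positive selection. Its macrophages take up the many thymocytes that die there. A sort on CD45 and CD90 or CD117 removes epithelium, fibroblasts and endothelium. The macrophages carry CD45 and are removed by the demand for CD90 or CD117.

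Values are array signals (intensities) on the linear scale of the authors' MAS5 output, as mean ± SD (n = 7 for whole cortex and 5 for sorted cortical thymocytes). Fold changes are whole cortex minus sorted cells on log2(signal + 26.2), where the added offset shrinks the change of weak signals. Calls required an adjusted p (limma, Benjamini-Hochberg over all 13463 genes tested) below 0.05 together with a log2 fold change of 1 or more in size. Every adjusted p below comes from that fit. Over all genes the median log2 fold change was 0.10. In tissue, more cells of a type and more RNA per cell cannot be told apart.

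Transcripts of cortical thymocytes had strong signals in tissue and in sorted cells. Rag1 and Rag2, which together form the recombinase for antigen receptor genes, had 45209 ± 11198 against 26669 ± 1491 (log2 fold change 0.72, SE 0.33, adjusted p = 0.075) and 5850 ± 617 against 6854 ± 745 (log2 fold change -0.23, SE 0.24, adjusted p = 0.46). Of 15 genes of double-positive thymocytes, 0 were called higher and 1 lower, with a median of -0.18. The lower one was Cd4, the class II co-receptor, at 2426 ± 1048 against 5701 ± 1504 (log2 fold change -1.28, SE 0.23, adjusted p = 2.2e-05), which had a log2 fold change of -0.49 and was not called with whole cortex 6 and 7 only. Among 17 genes of double-negative thymocytes 4 were called higher (median 0.24), led by Il7r, the receptor chain for interleukin 7, at 1011 ± 365 against 411 ± 44 (log2 fold change 1.16, SE 0.18, and 0.41, not called, with whole cortex 6 and 7 only). Il7r had 7476 to 11357 in sorted medullary thymocytes and 4674 to 7498 in whole medulla, so its call is not read as one of double-negative cells. No gene was called among 13 general T cell genes (median 0.07) or among 29 cell cycle genes (median 0.13). These counts depended on the arrays. With the subregion arrays of cortex in place of whole cortex, 5 of the 13 general T cell genes were lower (median -0.72), as were 4 of the 15 double-positive genes (median -0.67) and 4 cell cycle genes, with 1 higher. Among the lower ones were Cd8b1, the CD8 beta chain (-3.30), Cd3d, the CD3 delta chain (-2.21), and Rag2 (-1.12). In whole cortex Cd8b1 had 29976 ± 7416 against 21740 ± 1018 and Cd3d 25040 ± 6811 against 17449 ± 809, neither called. Cd4 was not called with the subregion arrays (-0.81). The upper signal range of the subregion arrays, given below, lay under that of the sorted cells. Its part in the lower calls was not tested. Of the double-negative genes 7 were higher with the subregion arrays, 2 higher and 1 lower after quantile normalization, 2 and 1 with whole cortex 1 to 5 only, and 1 higher with the mean over a gene's probe sets. Among the genes whose products the gate uses, Thy1 (CD90) had 27279 ± 3594 against 25713 ± 1762, Ptprc (CD45) 38335 ± 9946 against 26218 ± 483, Kit (CD117) 127 ± 64 against 134 ± 33.9 and Cd3e 4741 ± 1844 against 7326 ± 663, none of them called. Their levels in sorted cells follow the gate and are no finding. After quantile normalization the log2 fold changes of Rag1, Thy1 and Ptprc were -0.24, -0.72 and -0.42, so no direction is read for them, and with arrays scaled to equal medians Cd3e was called lower at -1.10.

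The whole cortex arrays were not uniform. The signal exceeded by 0.1% of the probe sets lay between 61472 and 75998 in whole cortex 1 to 5, at 39952 and 35990 in whole cortex 6 and 7, and between 26209 and 27818 in the sorted cells. In the subregion arrays that signal lay between 16919 and 19984, below the sorted cells. Correlations of log2 values were 0.939 to 0.977 between whole cortex arrays, 0.984 to 0.988 between sorted samples, and 0.894 to 0.94 between arrays of the 2 groups. Among the whole cortex arrays, 6 and 7 had the upper range nearest to that of the sorted cells, and counts from these 2 arrays are given beside the main ones.

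In whole cortex 1288 genes were called higher (9.57% of the genes tested) and 203 lower (1.51%). Most of the 1288 higher genes had little signal in thymocytes: for 1055 of them (81.9%, against 26.5% of all genes) the mean in sorted cells was below 78.5, the median signal of an array of that group. Genes weak in sorted cells could pass the filter through other arrays where they are high, and the call uses the same sorted-cell values. Of the 203 lower genes 0 had such a mean, so this share is only a description. For 982 of the 1288 every whole cortex array exceeded every sorted sample, a separation that 12.7% of all genes showed. With whole cortex 6 and 7 only, 1299 genes were called higher, among them 1033 of the 1288. The lower calls numbered 29 with whole cortex 6 and 7 only, of which 12 were among the 203, and 427 with whole cortex 1 to 5 only. With arrays scaled to equal medians, which moved the median change over all genes to -0.26 (log2), 961 genes were higher and 856 lower. Leaving out single arrays gave 1259 to 1363 higher and 156 to 293 lower.

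**Figure D1:**
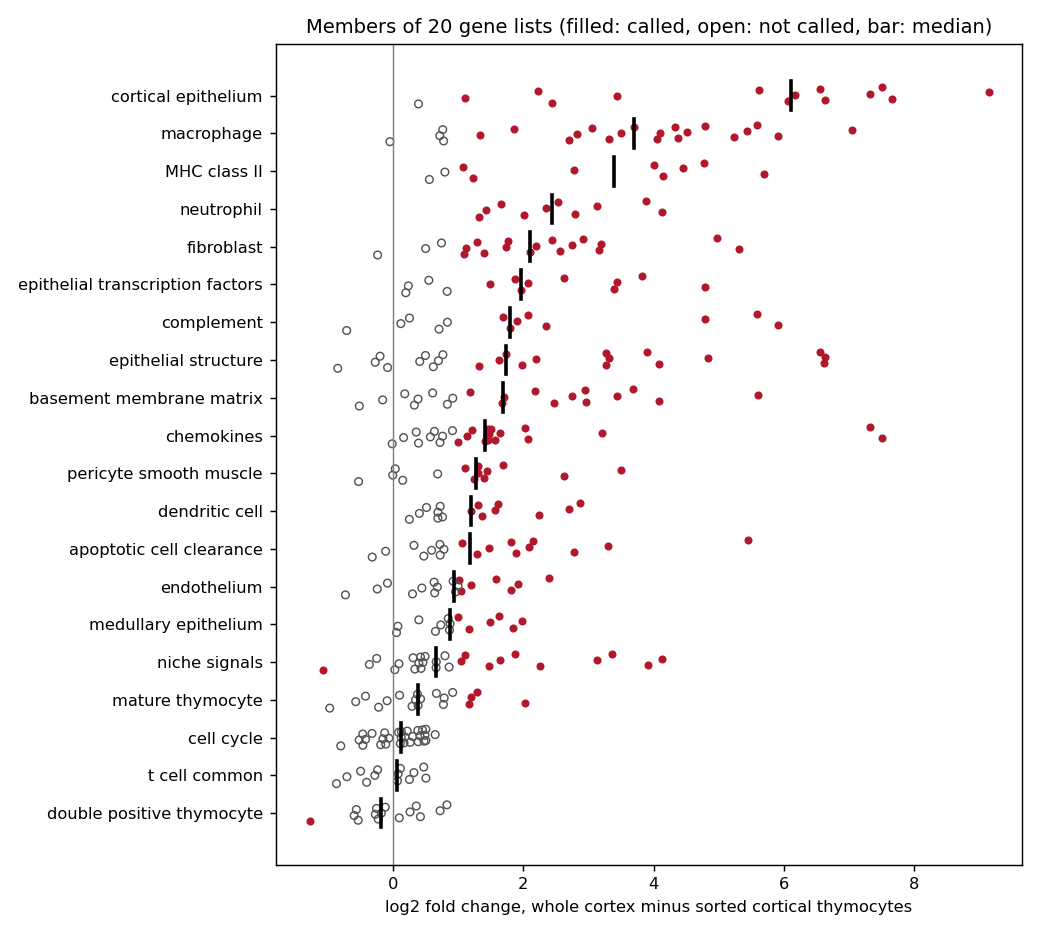
Log2 fold change of every tested member of 20 gene lists, whole cortex minus sorted cortical thymocytes (x axis, log2 of signal plus offset), 1 row per list, with called genes filled, genes not called open, and the list median as a vertical bar. Cortical epithelial genes lie farthest to the right, and double-positive thymocyte, general T cell and cell cycle genes scatter around 0.

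Genes of cortical epithelium had the largest median excess in tissue among the 36 lists. The lists were chosen with earlier results of these data known, so this rank is a description. Of 14 listed genes 13 were called higher, 1 was not called, and the median log2 fold change was 6.11. Tbata, a gene of thymus, brain and testis, had a signal of 18205 at the lowest, 21302 at the median and 29688 at the highest of the 7 whole cortex arrays, and 4.25, 16.1, 38.9, 1.66 and 17.3 in the 5 sorted samples (log2 fold change 9.14, SE 0.18, adjusted p = 2.7e-31). In 4 of the 5 sorted samples it was below the offset of 26.2, so the offset bears on the size of this change, and its rank among such genes is not read. Another probe set of Tbata, used when probe sets with special suffixes were left out, gave 4.27. Prss16, the thymus-specific serine protease of cortical epithelium, had 12676 at the lowest, 13473 at the median and 16568 at the highest of the 7 whole cortex arrays, and 36.1, 57.7, 61.2, 23.5 and 44.2 in the 5 sorted samples (log2 fold change 7.66, SE 0.14, adjusted p = 3.1e-32). Each whole cortex array was above each sorted sample for both genes.

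The 2 chemokines that draw and hold immature thymocytes were called too. Cxcl12, the ligand of CXCR4, had 7388 at the lowest, 7905 at the median and 8575 at the highest of the 7 whole cortex arrays, and 19.2, 3.85, 40.4, 28.7 and 7.22 in the 5 sorted samples (log2 fold change 7.50, SE 0.15, adjusted p = 5.5e-31). Ccl25, the ligand of CCR9, had 17671 ± 2227 against 86.4 ± 23.9 (log2 fold change 7.31, SE 0.10, adjusted p = 1.5e-35) in its brightest probe set, whereas its other probe set did not have this direction. Psmb11, the catalytic subunit of the thymoproteasome, which makes the class I peptides of positive selection, had 1828 at the lowest, 2759 at the median and 3325 at the highest of the 7 whole cortex arrays, and 26, 3.84, 4, 4.03 and 31.6 in the 5 sorted samples (log2 fold change 6.16, SE 0.20, adjusted p = 1.2e-24). The mean of Tbata, Prss16, Cxcl12 and Psmb11 in the sorted cells was below the median signal of those arrays.

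The keratins, surface proteins and proteases of the same cell were called as well. Krt8 and Krt18, the paired keratins of simple epithelium, had 8643 ± 1174 against 69.6 ± 30.5 and 10904 ± 1536 against 85.8 ± 23.7 (log2 fold change 6.54, SE 0.16 and 6.63, SE 0.12). Cd83, a membrane protein that stabilises class II molecules on this epithelium, had 3193 ± 557 against 23.7 ± 15, and Enpep, the aminopeptidase known as Ly51 that serves as a surface marker of cortical epithelium, had 1739 ± 241 against 10.5 ± 10.5. Foxn1, the transcription factor on which thymic epithelium depends, had 353 ± 96.2 against 8.44 ± 5.9 (log2 fold change 3.43, SE 0.21). Ctsl and Ly75 also had signal in thymocytes. Ctsl, the protease that processes the invariant chain in cortical epithelium, had 34642 ± 6926 against 6230 ± 376 (log2 fold change 2.44, SE 0.12), and Ly75, the endocytic receptor DEC-205, had 1672 ± 457 against 328 ± 49.8 (log2 fold change 2.23, SE 0.26). Dll4, the Notch ligand of cortical epithelium, passed the threshold with a weak signal of 172 ± 52.4 against 70.2 ± 35.1 (log2 fold change 1.10, SE 0.24). Its call ended after quantile normalization (0.92), with equal medians (0.82), and without whole cortex 1 (0.99) or sorted cortical thymocytes 2 (0.85). Cxcl14, a chemokine of epithelia, was the member not called, at 77.9 ± 33.4 against 51 ± 20.3.

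**Figure D2:**
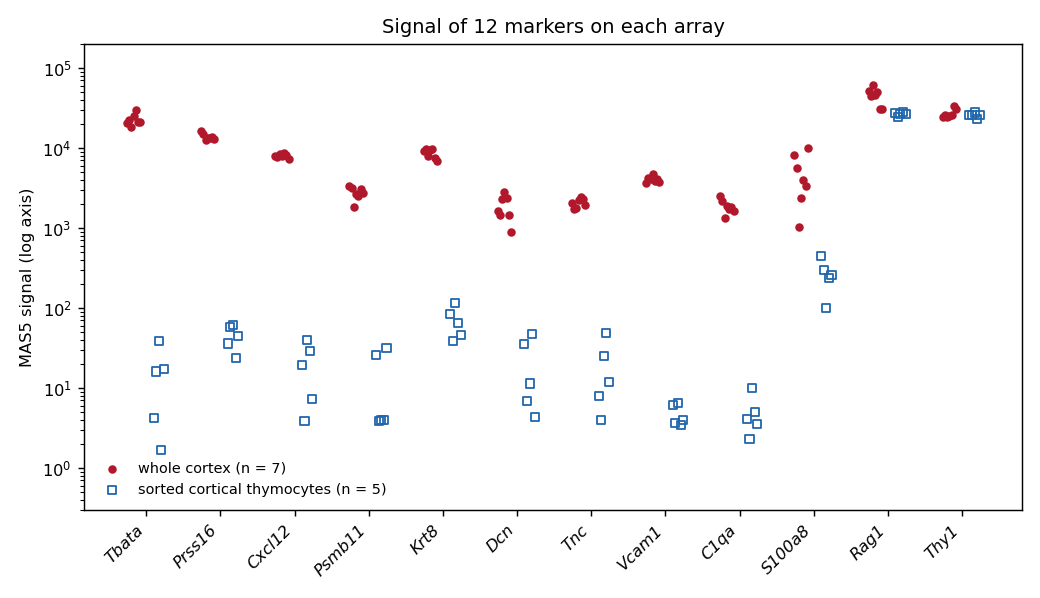
Signal of 12 marker genes on each whole cortex array (filled circles, n = 7) and each sorted cortical thymocyte sample (open squares, n = 5), on a logarithmic axis of MAS5 signal. For the 10 stromal, macrophage and neutrophil markers every whole cortex array lies above every sorted sample, and Rag1 and Thy1 are high in both groups.

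These genes were called together, and the DNA before their starts was searched for GACGC, the short core that the forkhead domain of FOXN1 is known to bind. Of the 13 called cortical epithelial genes, 11 had a promoter in the RefSeq table (build GRCm38.p6), and 4 of the 11 (Psmb11, Cxcl12, Ccl25 and Enpep) held the core on either strand within 250 bases before a start. Counted by promoter, the core stood in 4 of the 12 promoters of these genes, of which Ccl25 had 2, and in 22.6% of the 32851 promoters in the table. The 3 sequences below are those of the thymoproteasome subunit, the chemokine and Tbata; capitals mark the core or its reverse complement, and lower case the rest.
Psmb11 promoter, chr14:54625060-54625309, plus strand: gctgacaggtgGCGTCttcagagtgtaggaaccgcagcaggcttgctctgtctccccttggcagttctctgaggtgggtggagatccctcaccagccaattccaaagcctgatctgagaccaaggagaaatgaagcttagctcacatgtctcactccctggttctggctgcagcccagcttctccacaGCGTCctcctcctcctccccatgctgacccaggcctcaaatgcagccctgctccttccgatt
Cxcl12 promoter, chr6:117168285-117168534, plus strand: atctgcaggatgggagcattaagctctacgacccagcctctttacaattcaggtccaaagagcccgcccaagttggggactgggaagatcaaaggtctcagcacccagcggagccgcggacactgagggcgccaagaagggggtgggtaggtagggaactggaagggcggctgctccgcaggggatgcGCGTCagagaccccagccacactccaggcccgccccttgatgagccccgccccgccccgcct
Tbata promoter, chr10:61171714-61171963, plus strand: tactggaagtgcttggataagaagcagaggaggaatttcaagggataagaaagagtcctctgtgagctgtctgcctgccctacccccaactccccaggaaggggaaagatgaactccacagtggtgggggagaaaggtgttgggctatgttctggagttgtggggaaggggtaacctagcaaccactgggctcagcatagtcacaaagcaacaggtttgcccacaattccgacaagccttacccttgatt
Psmb11 held the core 2 times, beginning 239 and 62 bases before its start, and Cxcl12 held it once, beginning 62 bases before. The letters do not occur in the Tbata window. A match is a description of the sequence and not evidence of binding.

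Transcription factors and structural genes of epithelium were higher in tissue as well. Of 13 epithelial transcription factors 9 were called higher and 0 lower (median 1.96). Pax1, a paired-box factor of the pharyngeal pouches from which the thymus arises, had 1150 ± 229 against 16.8 ± 11.9 (log2 fold change 4.79, SE 0.19). Isl1, a LIM homeodomain factor, had 404 ± 146 against 2.73 ± 1.24, and Trp63, which encodes the p63 factor of stratified epithelia, had 509 ± 154 against 24.2 ± 11. Eya1 and Pax9, further pouch regulators, were called at weaker signals of 162 ± 58.1 against 17.5 ± 10.9 and 126 ± 69.2 against 8.73 ± 2.57. Hoxa3, which acts above them in thymus formation, had 81.4 ± 21.2 against 34.1 ± 11.9 and was not called (adjusted p = 0.006), except with the subregion arrays (1.15).

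Of 23 genes of epithelial structure, 14 were called higher (median 1.73). Dsp, which encodes the desmosomal plaque protein desmoplakin, had 3911 ± 1010 against 13.4 ± 7.68 (log2 fold change 6.61, SE 0.19, adjusted p = 9.8e-26). The desmosomal cadherin Dsg2 was at 537 ± 56.9 against 7.64 ± 8.45 and its relative Dsc2 at 284 ± 92.9 against 4.26 ± 6.4. Perp, another desmosomal protein, was at 1146 ± 150 against 15.7 ± 11.2. Cdh1, E-cadherin, had 566 ± 136 against 102 ± 23.6 (log2 fold change 2.20, SE 0.16). Keratins beyond the cortical pair were called too, with Krt17 at 651 ± 209 against 19.1 ± 13.2 and Krt7 at 439 ± 58.2 against 25.8 ± 22. Itga6, an integrin chain of thymocytes and epithelium, had 2044 ± 382 against 2450 ± 174, and Jup, plakoglobin, had 478 ± 216 against 824 ± 80.9, neither called. With arrays scaled to equal medians Jup was called lower (-1.23), as it was with whole cortex 1 to 5 only (-1.16). Epcam, the general surface marker of epithelium, had 267 ± 49.5 against 155 ± 29.1 and was not called (adjusted p = 0.0039). With whole cortex 6 and 7 only, 13 cortical epithelial genes, 9 of the transcription factors and 14 of the structural genes were called higher.

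Kitl and Il7 led the signals that nourish or instruct thymocytes. Of 26 listed ligands and antagonists 10 were called higher and 1 lower (median 0.66). Kitl, the ligand of the progenitor receptor KIT, had 469 at the lowest, 619 at the median and 720 at the highest of the 7 whole cortex arrays, and 3.85, 24.8, 10.2, 7.61 and 3.01 in the 5 sorted samples (log2 fold change 4.13, SE 0.23, adjusted p = 7.1e-17). Il7, the cytokine for survival and growth of double-negative thymocytes, had 538 at the lowest, 797 at the median and 865 at the highest of the 7 whole cortex arrays, and 32.1, 8.7, 37, 14.5 and 32.9 in the 5 sorted samples (log2 fold change 3.90, SE 0.18, adjusted p = 8.6e-20). For both cytokines the groups did not overlap. Wnt4, a Wnt ligand of thymic epithelium, had 419 ± 118 against 16.5 ± 7.05, and Igf1, insulin-like growth factor 1, had 481 ± 145 against 34.2 ± 24.6. Besides Dll4, the Notch ligands Dll1 (207 ± 46.4 against 58.7 ± 22.2) and Jag1 (141 ± 46.1 against 19.9 ± 14.4) were called, and Jag2 (192 ± 64.6 against 110 ± 33.9) was not. Il15, a cytokine for innate-like lymphocytes, had 102 ± 36.6 against 14.3 ± 9.59 (log2 fold change 1.64, SE 0.21). Bmp7 (136 ± 78.9 against 145 ± 15.7), Vegfa (63.2 ± 50.9 against 54.1 ± 27.8) and Csf1 (282 ± 93.6 against 172 ± 79.3) were not called, and with the subregion arrays Bmp7 (1.16) and Vegfa (1.38) were called higher. Tgfb1, a cytokine that lymphocytes themselves make, was the lower one (1008 ± 661 against 1819 ± 147, log2 fold change -1.08, SE 0.29); its call ended without whole cortex 3 (-0.88), 4 (-0.99) or 5 (-0.97), and with whole cortex 6 and 7 only its sign turned (0.09). With the subregion arrays Tgfb1 was called lower (-3.61). With whole cortex 6 and 7 only, after quantile normalization and with the mean over probe sets no gene of the list was lower.

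Of 25 chemokines and scavenging receptors 16 were called higher (median 1.41). After Cxcl12 and Ccl25 came Cxcl10. This interferon-induced ligand of CXCR3 had 460 ± 138 against 27.1 ± 17.1 (log2 fold change 3.20, SE 0.20), and Cxcl16, the ligand of CXCR6, had 350 ± 114 against 71.4 ± 54.3. Of the chemokines known from the medulla, Ccl22 was called at 118 ± 25.4 against 24.9 ± 20.2 and Ccl17 was not, at 30.8 ± 21.1 against 5.43 ± 1.81, where whole medulla had 4800 ± 814 and 872 ± 99.2. With the subregion arrays Ccl17 was called higher (1.04). Ackr4, a scavenging receptor that removes CCL25 and CCR7 ligands, had 144 ± 51.8 against 140 ± 21.7 and was not called. For retinoic acid, 3 of 9 genes were called, the largest being Cyp26b1, which degrades retinoic acid, at 223 ± 55.2 against 12.2 ± 4.8 (log2 fold change 2.68, SE 0.29).

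Fibroblast transcripts were higher in tissue with a smaller median than those of cortical epithelium. Of 19 fibroblast genes 16 were called higher (median 2.10). Dcn, the small matrix proteoglycan decorin, had 881 at the lowest, 1653 at the median and 2849 at the highest of the 7 whole cortex arrays, and 35.8, 6.89, 11.4, 48 and 4.39 in the 5 sorted samples (log2 fold change 5.31, SE 0.24, adjusted p = 6.5e-20). Col3a1, type III collagen, had 1797 ± 640 against 30 ± 10.8, and Col1a2, a chain of type I collagen, had 643 ± 198 against 47.3 ± 15.5. Pdgfra, the receptor that marks fibroblasts, was called at a weak signal of 84.1 ± 31.4 against 6.03 ± 7.48 (log2 fold change 1.73, SE 0.26). Fstl1, a secreted follistatin-like protein, had 308 ± 125 against 8.47 ± 6.41, and Lum, the proteoglycan lumican, had 323 ± 72.3 against 20 ± 9.04. Arrays of the 2 groups did not overlap for 13 of the 19 genes.

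Of 14 pericyte and smooth muscle genes 9 were called higher (median 1.27). Rgs5, a regulator of G protein signalling in pericytes, had 600 ± 157 against 28.1 ± 6.11 (log2 fold change 3.50, SE 0.17), and Myh11, smooth muscle myosin, had 259 ± 63.2 against 21.1 ± 15.3. Pdgfrb, the receptor of pericytes, had 221 ± 99.3 against 189 ± 54.4 and was not called (adjusted p = 0.58), except with the subregion arrays (1.78). Of 18 endothelial genes 7 were called higher (median 0.94), with Cldn5, the claudin of tight capillaries, at 194 ± 68.4 against 14.3 ± 8.51 (log2 fold change 2.40, SE 0.26) and Cdh5, VE-cadherin, at 107 ± 48.6 against 16.3 ± 20.4 (log2 fold change 1.58, SE 0.33). Every whole cortex array was above every sorted sample for 2 of the 18 genes and below for 1, Pecam1. These separations were shown by 12.7% and 7.39% of all genes. Cdh5 overlapped, with whole cortex 5 at 4 and sorted cortical thymocytes 1 at 52.2. Pecam1, which thymocytes also gave signal for, had 475 ± 121 against 782 ± 64.5 and was not called; it was called lower with equal medians (-1.11) and with the subregion arrays (-3.42), whose means were 65.9 ± 8.1, 19.9 ± 7.47 and 79.6 ± 40.7. Ptprb, the endothelial phosphatase, and Plvap, the diaphragm protein of fenestrated capillaries, had 189 ± 75.8 against 27.6 ± 7.44 and 150 ± 66.4 against 21.7 ± 13.7. Basement membrane and matrix genes were called higher in 12 of 20 cases (median 1.69). Tnc, the matrix protein tenascin C, had 1745 at the lowest, 2068 at the median and 2475 at the highest of the 7 whole cortex arrays, and 7.99, 4, 25.4, 49.1 and 12 in the 5 sorted samples (log2 fold change 5.59, SE 0.22, adjusted p = 1.5e-21), and Col4a1, a chain of the collagen of basement membranes, had 698 ± 125 against 40 ± 4.57. With whole cortex 6 and 7 only, called genes numbered 13, 9, 7 and 12 for these 4 lists. Sparc, the matricellular protein osteonectin, and Lamb1, a laminin chain, had 542 ± 73.9 against 7.29 ± 2.94 and 479 ± 193 against 11.6 ± 10.5. After quantile normalization 4 endothelial genes were called.

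Macrophage transcripts were higher in tissue. Of 23 listed genes 19 were called higher (median 3.69), and 19 with whole cortex 6 and 7 only. The median of class II genes was 3.40, and the order of these 2 lists turned with whole cortex 6 and 7 only (3.40 for macrophage and 3.58 for class II genes) and with the subregion arrays (3.23 and 3.74). Vcam1, an adhesion molecule of thymic macrophages that epithelium and endothelium can also carry, had 3679 at the lowest, 4095 at the median and 4674 at the highest of the 7 whole cortex arrays, and 6.19, 3.62, 6.55, 3.47 and 4 in the 5 sorted samples (log2 fold change 7.04, SE 0.11, adjusted p = 3.7e-34). C1qa, a chain of complement C1q made by macrophages, had 1323 at the lowest, 1811 at the median and 2481 at the highest of the 7 whole cortex arrays, and 4.08, 2.28, 9.89, 5.02 and 3.57 in the 5 sorted samples (log2 fold change 5.90, SE 0.15, adjusted p = 1.1e-27). The groups did not overlap for either gene. Slc40a1, the iron exporter ferroportin, had 1581 ± 340 against 11.5 ± 11.5 (log2 fold change 5.43, SE 0.15), and Csf1r, the receptor for the macrophage growth factor, had 2174 ± 396 against 74.3 ± 38.2 (log2 fold change 4.51, SE 0.15). Adgre1, the F4/80 antigen, had 760 ± 132 against 68.6 ± 17.2 (log2 fold change 3.05, SE 0.14). Mrc1, the mannose receptor, had 1061 ± 154 against 39.9 ± 11, and Spic, a transcription factor of iron-recycling macrophages, had 228 ± 63.4 against 44.8 ± 21.5; Spic was not called with the subregion arrays (0.50). Mpeg1, the macrophage perforin, had 1495 ± 292 against 14 ± 3.28, and Cd163, the haemoglobin scavenger receptor, 241 ± 65.3 against 16.4 ± 17.7. Hmox1, haem oxygenase, had 74.5 ± 35.6 against 33.1 ± 15.4 and was not called.

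Genes for taking up dying cells were called higher in 10 of 18 cases (median 1.17). The bridging ligand Gas6, which links exposed phosphatidylserine to TAM receptors, had 2187 ± 317 against 27.5 ± 21.1 (log2 fold change 5.44, SE 0.20, adjusted p = 1.9e-22). Its receptors Mertk and Axl had 214 ± 43.3 against 29.9 ± 9.26 and 495 ± 132 against 112 ± 16.5 (log2 fold change 2.09, SE 0.23 and 1.88, SE 0.18). With the subregion arrays, where its means were 120 ± 7.7, 156 ± 27.8 and 174 ± 44.2, Axl was not called (0.34). Cd36, a scavenger receptor for dying cells and lipids, had 294 ± 64 against 6.22 ± 6.26 (log2 fold change 3.30, SE 0.17), and Lrp1, a large endocytic receptor, had 259 ± 53.6 against 39.7 ± 18.4. Timd4, a phosphatidylserine receptor of resident macrophages, had 193 ± 85.6 against 3.52 ± 2.35. Transporters of the cholesterol that engulfed cells bring had signal in thymocytes too and were not called: Abca1 had 3057 ± 1119 against 1966 ± 499 and Abcg1 2919 ± 410 against 3163 ± 492. Lysosomal genes were called in 6 of 20 cases (median 0.59). These included Ctss, cathepsin S, at 2828 ± 541 against 138 ± 40.4 (log2 fold change 4.14, SE 0.13), Lgmn, the asparaginyl endopeptidase legumain, at 372 ± 123 against 24.5 ± 12.7, and Grn, progranulin, at 2847 ± 292 against 464 ± 57.1, whereas Ctsd, cathepsin D, had 3143 ± 601 against 2711 ± 210 and was not called. In sorted medullary thymocytes Ctss had 6049 to 8709, above every whole cortex array. The complement list was called in 8 of 13 cases (median 1.79), 3 of them the C1q chains that also stand among the macrophage genes. Outside C1q, Serping1, the C1 inhibitor, had 256 ± 43.1 against 31.8 ± 18.4.

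Class II presentation genes were called higher in 8 of 10 cases (median 3.40). H2-Aa, a class II alpha chain, had 7489 at the lowest, 9082 at the median and 10755 at the highest of the 7 whole cortex arrays, and 227, 101, 112, 137 and 197 in the 5 sorted samples (log2 fold change 5.70, SE 0.15, adjusted p = 2.7e-27), and Cd74, the invariant chain, had 5074 ± 1737 against 154 ± 28.8 (log2 fold change 4.77, SE 0.16). H2-Eb1 and H2-Ab1, class II beta chains, had 2832 ± 494 against 105 ± 29.9 and 3364 ± 621 against 185 ± 49.7. H2-DMa, part of the peptide exchange factor, had 803 ± 143 against 362 ± 27.8 (log2 fold change 1.08, and 0.71, not called, with equal medians), and H2-Ob, part of its inhibitor, had 156 ± 61.7 against 93.1 ± 13.4 and was not called, except with the subregion arrays (2.04). Class I genes were called in 2 of 14 cases (median 0.23): H2-K1, a class I heavy chain, had 7468 ± 1127 against 1676 ± 139 (log2 fold change 2.13, SE 0.13), and Psmb9, an immunoproteasome subunit, had 3597 ± 716 against 1521 ± 131 (log2 fold change 1.21, SE 0.11). Psmb9 was not called with equal medians (0.82) or with whole cortex 6 and 7 only (0.81), and its sign turned with the subregion arrays (-0.37), with which 4 class I genes were lower (median -0.28). In sorted medullary thymocytes H2-K1 had 21972 to 37830, above every whole cortex array. Dendritic cell genes were called higher in 8 of 15 cases (median 1.19), and 6 with whole cortex 6 and 7 only. Sirpa, a receptor of myeloid and dendritic cells, had 476 ± 38.1 against 55.1 ± 25.6, and Irf8, a factor of their development, 986 ± 147 against 187 ± 18.4. Of their defining markers, Itgax (CD11c) had 148 ± 52.2 against 47.1 ± 29.4 and Flt3 125 ± 23.7 against 33.5 ± 15.2 (not called with the subregion arrays, 0.81), and Zbtb46, the factor of classical dendritic cells, had 75.6 ± 26.7 against 38.1 ± 22 and was not called.

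Neutrophil genes were called higher in 10 of 10 tested genes (median 2.44). The count was 9 with whole cortex 1 to 5 only and 8 with the subregion arrays (median 1.85). Arrays did not overlap between the groups for 7 of the 10. S100a9 and S100a8, the 2 chains of calprotectin, had 4371 ± 2625 against 185 ± 84.3 and 4958 ± 3209 against 269 ± 127 (log2 fold change 4.13, SE 0.46 and 3.89, SE 0.46). Ngp, a granule protein, had 425 at the lowest, 1102 at the median and 3508 at the highest of the 7 whole cortex arrays, and 370, 200, 90.4, 151 and 211 in the 5 sorted samples (log2 fold change 2.34, SE 0.48, adjusted p = 0.00019). Mmp9, a gelatinase, and Camp, cathelicidin, had 386 ± 66.3 against 23.6 ± 20.4 and 723 ± 424 against 69.9 ± 32.8. S100a8 at 269 ± 127 and Ngp at 204 ± 104 were above the median array signal in sorted cells as well. The summed signal of the list was 3135 to 25918 over the whole cortex arrays and 616 to 1565 over the sorted samples. Alas2, the haem synthesis enzyme of red cell precursors, had 125 ± 92 against 7.64 ± 5.12, and Pf4, a platelet chemokine, had 276 ± 61.7 against 50 ± 26.4; these were the 2 called of 4 tested genes of red cells and platelets. Alas2 was not called with the subregion arrays (0.59). The part of blood in these levels was not tested.

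B cell genes were called higher in 3 of 12 cases (median 0.60), but the defining markers Cd79a (55.8 ± 56.7 against 35.5 ± 13) and Ms4a1 (107 ± 30.3 against 46 ± 15.3) were not. With the subregion arrays 6 of the 12 were called, Ms4a1 among them (1.26). Jchain, the joining chain of secreted antibodies, had 3005 ± 1241 against 165 ± 37.1 (log2 fold change 3.90, SE 0.21). Its level was 2497 ± 595, 2715 ± 639 and 2745 ± 491 in subcapsular, central and perimedullary cortex and 644 ± 150 in whole medulla. Adipocyte genes gave 3 calls of 6. Fabp4, a fatty acid binding protein that capillaries and macrophages also contain, had 3096 ± 714 against 16.3 ± 11.8 (log2 fold change 6.20, SE 0.16, adjusted p = 1.5e-27), and Lpl, lipoprotein lipase, had 1747 ± 294 against 25.8 ± 11.1. The fat cell hormone Adipoq was called at 95 ± 38.2 against 16.3 ± 13.3, but not with the subregion arrays (0.85). None of 5 Schwann cell genes was called.

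Medullary epithelial transcripts were far below their medullary level in whole cortex. Of 14 medullary epithelial genes 6 were called higher (median 0.87). Aire, the regulator of self-antigen expression in medullary epithelium, had 6.3 at the lowest, 10.8 at the median and 61 at the highest of the 7 whole cortex arrays, and 11.7, 8.26, 9.51, 11.5 and 8.38 in the 5 sorted samples, and it was not called (adjusted p = 0.24), except with the subregion arrays (1.27). In whole medulla Aire had 2333 ± 231. Fezf2, a second such regulator, was called at 76 ± 29.7 against 9.35 ± 6.07 (log2 fold change 1.48, SE 0.22), with 2895 ± 540 in whole medulla; it was not called with the subregion arrays (0.48). Krt5 and Krt14, the paired keratins of basal and medullary epithelium, had 442 ± 126 against 93.9 ± 36.6 and 120 ± 61.1 against 19.6 ± 22.5, and Cd40, a receptor of antigen-presenting cells and medullary epithelium, had 194 ± 75.4 against 40.7 ± 38.6. The summed signal of the list was 1730 to 2321 over the whole cortex arrays, 697 to 874 over the sorted samples and 22239 to 29913 over the medulla arrays. The part of medullary cells in the whole cortex values was not tested.

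Mature thymocyte genes were called higher in 4 of 19 cases (median 0.38), in 1 with the mean over probe sets, and with the subregion arrays in 7, with 2 lower. Their sum was 17003 to 19881 over the whole cortex arrays, 15564 to 17773 over the sorted samples and 95576 to 111569 over the medulla arrays. The gate asks for no or low CD3, and the part of mature cells in dissected cortex was not tested. Gimap4, a GTPase of mature lymphocytes, had 1487 ± 272 against 346 ± 74.6 (log2 fold change 2.03, SE 0.12, adjusted p = 6e-16) and 20000 ± 2637 in whole medulla. Ccr7, the receptor that leads selected thymocytes to the medulla, had 214 ± 49.5 against 113 ± 15.8 and was not called, except with whole cortex 6 and 7 only (1.02), against 6155 ± 874 in whole medulla. Interferon-response genes were called in 5 of 17 cases (median 0.44). Oasl2 had 517 ± 177 against 60 ± 22.2 and Ifit1 465 ± 75.4 against 61.8 ± 24.4 (log2 fold change 2.63, SE 0.17 and 2.51, SE 0.14). In sorted medullary thymocytes Oasl2 had 851 to 1340 and Ifit1 2723 to 3876, both above every whole cortex array.

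Among genes that respond to handling, one heat shock gene stood out by size. Of 21 immediate early genes 3 were called higher and 0 lower (median -0.10). The called ones were Ier3 (101 ± 35 against 16.1 ± 11.3), Klf4 (177 ± 65 against 45 ± 15.5) and Fosl2 (66.9 ± 17.2 against 8.51 ± 6.75). Fosl2 had 197 to 285 in sorted medullary thymocytes, above every whole cortex array, where Ier3 had 10.8 to 57.3 and Klf4 40.1 to 105 in those sorted cells. Fos had 142 ± 63.5 against 174 ± 29.9 and Egr1 4385 ± 641 against 4778 ± 790, neither called. Heat shock genes were called in 4 of 15 cases (2 after quantile normalization), led by Hspa1b, the inducible chaperone. Its signal was 530 at the lowest, 838 at the median and 1428 at the highest of the 7 whole cortex arrays, and 0.678, 38.8, 34.4, 40.6 and 28.9 in the 5 sorted samples (log2 fold change 4.03, SE 0.23, adjusted p = 1.1e-16). The related constitutive chaperone Hspa8 had 35687 ± 8996 against 17913 ± 1346 (log2 fold change 0.96) and was not called, except without whole cortex 7 (1.04) and with whole cortex 1 to 5 only (1.10). Antioxidant genes gave 4 calls of 17, with Nqo1, a quinone reductase, at 472 ± 114 against 37.1 ± 18.2 (log2 fold change 3.01, SE 0.22) and Srxn1, sulfiredoxin, at 376 ± 68.4 against 42.6 ± 26; the haem enzyme catalase, Cat, had 2749 ± 609 against 3988 ± 223 and was not called. The secreted glutathione peroxidase Gpx3 was called at 124 ± 86.4 against 24.6 ± 22.5 (log2 fold change 1.28) but was not called with the subregion arrays (0.97) or with whole cortex 1 to 5 only (0.98). Hypoxia and glycolysis genes gave 2 calls of 14 and sterol synthesis genes 0 of 13. None of 16 respiratory chain genes was called (median 0.40).

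The result for ribosomal protein genes depended on the arrays used. From all 7 whole cortex arrays 5 of 10 were called higher (median 1.06), with Rps14 at 77479 ± 27144 against 28598 ± 1093. With whole cortex 6 and 7 only 0 were called (median 0.49), and after quantile normalization 0 (median 0.12). With the mean over probe sets it was 2. Rps14 had 15225 ± 3376, 18780 ± 549 and 19012 ± 846 in subcapsular, central and perimedullary cortex, below its level in sorted cells. No direction is read for this family.

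**Figure D3:**
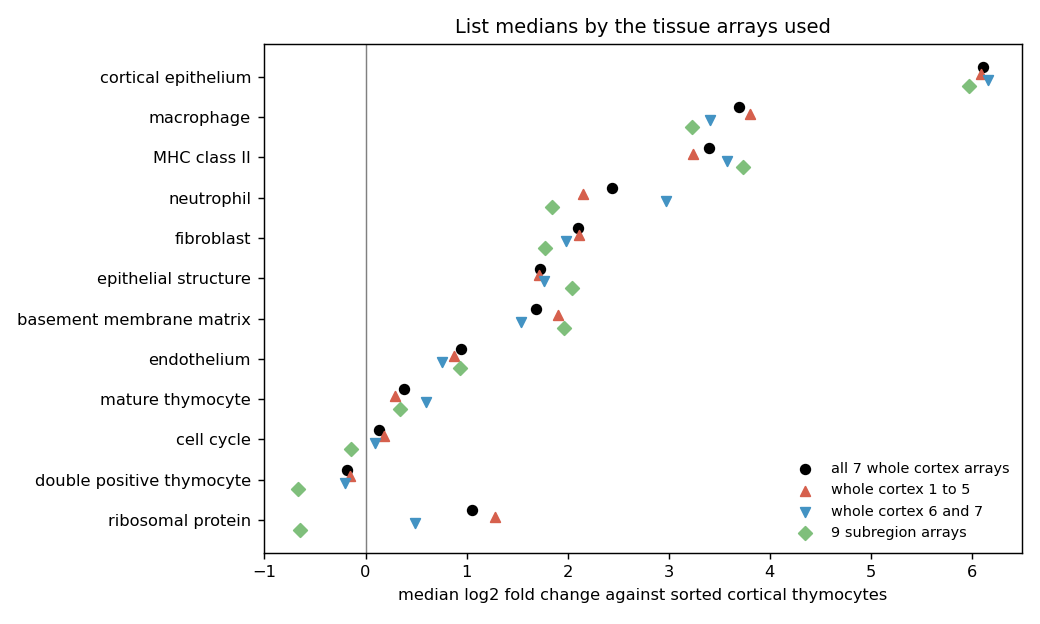
Median log2 fold change against sorted cortical thymocytes for 12 gene lists (rows), from all 7 whole cortex arrays, from whole cortex 1 to 5, from whole cortex 6 and 7, and from the 9 subregion arrays in place of whole cortex. For cortical epithelium the 4 medians lie near 6 and for macrophages above 3, whereas for ribosomal protein genes they lie on both sides of 0.

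The subregion arrays are a second set of dissected cortex, set against the same sorted samples in an alternative chosen after seeing the data. For lists of stroma and macrophages they gave 13 of 14 cortical epithelial genes called higher (median 5.98), 17 of 23 macrophage genes (median 3.23) and 14 of 19 fibroblast genes (median 1.78). For other lists the counts moved by over 1.5 times. Besides the thymocyte, class I, B cell, red cell and ribosomal lists described above, interferon-response genes called higher numbered 9 of 17 in place of 5, hypoxia and glycolysis genes 4 of 14 in place of 2, and retinoic acid genes 1 of 9 in place of 3. Lower calls appeared among lysosomal (2), sterol synthesis (3), respiratory chain (2) and endothelial genes (1). Of the 137 named genes called in the main comparison 17 were not called in the same direction. Over all 13463 genes the subregion arrays gave 2027 called higher and 912 lower, where the main comparison gave 1288 and 203. The list counts above are therefore not read as shifts particular to a list. Both comparisons share the sorted samples, so close values are no independent support.

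Of the 203 lower genes 2 stood on any list (Cd4 and Tgfb1), which is 0.985%, against 4.02% of all genes tested, and for 115 the arrays of the groups did not overlap, a separation in this direction that 7.39% of all genes showed. The 3 with a log2 fold change of at most -2 were H3f3b, a histone H3.3 gene, at 58.4 ± 36.3 against 377 ± 114 (log2 fold change -2.33, SE 0.34), Vps33b, a vesicle sorting protein, at 93.8 ± 75.1 against 428 ± 146 (log2 fold change -2.11, SE 0.40), and Atxn7l2, an ataxin 7-like protein, at 136 ± 102 against 546 ± 60 (log2 fold change -2.04, SE 0.33). H3f3b, measured here by 1 probe set, had 12.9 at the lowest, 56.6 at the median and 122 at the highest of the 7 whole cortex arrays, and 412, 538, 401, 287 and 248 in the 5 sorted samples. The groups did not overlap, and the ratio of the highest to the lowest array was larger in whole cortex than in the sorted samples. Vps33b was not called with whole cortex 6 and 7 only (-1.35). Neither H3f3b (-0.97) nor Vps33b (0.01) was called with the subregion arrays. Next in size were Emilin1, an elastic fibre glycoprotein (246 ± 163 against 765 ± 85.7), Ttll1, a tubulin polyglutamylase subunit (360 ± 259 against 1065 ± 26.8), Gpc2, a glypican (37.1 ± 33.7 against 156 ± 21.1), Sbf1, a myotubularin-related protein (618 ± 323 against 1822 ± 212), Wdr48, a cofactor of deubiquitinases (612 ± 208 against 1899 ± 125), and Lbh, a transcription cofactor (648 ± 454 against 1758 ± 251). With whole cortex 6 and 7 only, Emilin1, Ttll1, Gpc2, Sbf1 and Lbh were not called, with log2 fold changes of -0.82, -0.52, -0.77, -0.79 and -0.45. Emilin1 (-0.65), Ttll1 (-0.65) and Wdr48 (0.52) were not called with the subregion arrays. Of the 203 genes 52 (25.6%) were also lower in whole medulla than in sorted medullary thymocytes, against 1.2% of all genes. Probe sets that do not represent a gene here were called lower more often. The share was 1.51% for the brightest probe set of a gene, 7.74% for the other probe sets of genes and 9.2% for probe sets with no symbol or several, and 1562 of all 30045 probe sets tested singly were lower against 2172 higher.

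The tissue excess of the cortex was then set against that of the medulla, taken as whole medulla minus sorted medullary thymocytes. These 2 contrasts share no array, but they share the fit, the filter and the confounding of kit and kind of sample. Of the 1288 genes higher in whole cortex 1019 (79.1%) were also called higher in whole medulla, a call that 19.3% of all genes and 13% of the other genes had; these are 39.1% of the 2605 genes with a medullary excess. The difference between the excesses, tested as an interaction term, was called larger in cortex for 299 genes (2.22%) and smaller for 1698 (12.6%). Among the 1288 it was larger for 157 and smaller for 419. Since the 1288 were chosen on cortex values that the difference also uses, these last counts are a description.

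Prss16, Psmb11 and Cxcl12 were among the 6 genes with the largest cortical excess over the medullary one, among genes also called higher in whole cortex, to which the genes named for this difference and for the regions of the cortex are limited. The difference in log2 excess was 5.45, SE 0.20 for Prss16, 4.35, SE 0.28 for Psmb11 and 3.61, SE 0.21 for Cxcl12. Inmt, an indolethylamine methyltransferase, had 3.82, SE 0.26, with 1721 ± 402 in whole cortex and 145 ± 44.2 in whole medulla. Plekhb1, a pleckstrin homology protein, had 3.55, SE 0.30, with 1525 ± 391 and 108 ± 35.1. Isg20, an exonuclease, had 3.35, SE 0.14; its signal was 3027 ± 383 in whole cortex, 354 ± 29.6 in sorted cortical cells, 1636 ± 260 in whole medulla and 2072 ± 158 in sorted medullary cells. For the macrophage iron exporter Slc40a1 the difference was 2.96, SE 0.21. Of the 14 cortical epithelial genes 8 had a larger and 1 a smaller excess in cortex, and of 23 macrophage genes 5 and 6.

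In the other direction the excess was smallest relative to medulla for Fcgbp, an IgG Fc binding mucus protein, at -5.32, SE 0.35, for Ccl22 at -5.26, SE 0.31 and for Fscn1, the actin bundler of mature dendritic cells, at -5.19, SE 0.23. Cxcl9, an interferon-induced chemokine, had -5.17, SE 0.43, Gpx3, the secreted glutathione peroxidase, -4.97, SE 0.57, and Krt14, a basal keratin, -4.69, SE 0.40. Aire, which was not called in whole cortex and is outside this limit, had -4.92, SE 0.38. The Krt14 signal was 120 ± 61.1 in whole cortex and 3022 ± 420 in whole medulla. No difference was called for Krt8 (-0.14, SE 0.23) or Vcam1 (0.04, SE 0.15). Cxcl9 was called in cortex at a weak signal (55.5 ± 64.6 against 6.12 ± 2.94), and its cortical call ended without whole cortex 3 (0.87), 4 (0.90) or 5 (0.72) and without sorted cortical thymocytes 1 (0.96) or 5 (0.97). Genes of epithelial structure had a smaller excess in cortex in 18 of 23 cases, and fibroblast genes in 8 of 19.

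**Figure D4:**
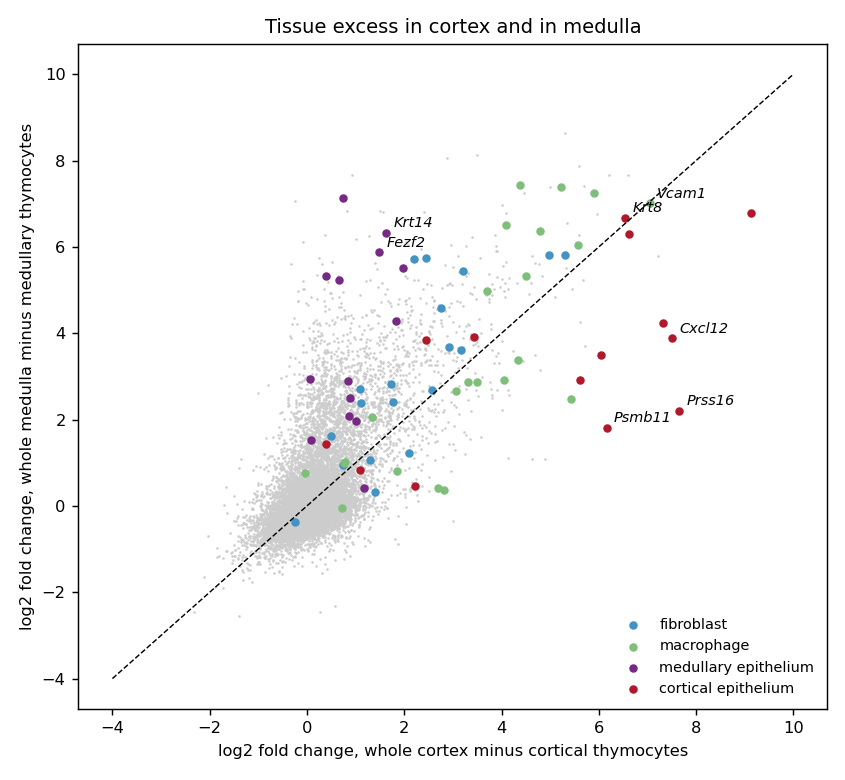
Tissue excess in cortex (x axis, whole cortex minus sorted cortical thymocytes) against tissue excess in medulla (y axis, whole medulla minus sorted medullary thymocytes), both as log2 fold change, for all 13463 genes (grey) with listed cortical epithelial, medullary epithelial, macrophage and fibroblast genes coloured; the dashed line marks equal excess. Prss16, Psmb11 and Cxcl12 lie below the line, Krt8 and Vcam1 near it, and Krt14 and Fezf2 above it.

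Within the cortex, arrays of perimedullary and subcapsular tissue showed where these transcripts were higher. They are outside the main contrast but enter its fit through the shared spread, the filter and the choice of probe sets. Of the 1288 genes 112 (8.7%) were called higher in perimedullary cortex and 49 (3.8%) higher in subcapsular cortex, against 2.91% and 1.66% of all genes. Among the 203 genes lower in whole cortex 7 (3.45%) were higher in perimedullary cortex and 0 in subcapsular cortex. Of 14 cortical epithelial genes 1 was called. Prss16 had 7201 ± 972, 6622 ± 433 and 7348 ± 759 in subcapsular, central and perimedullary cortex, and Tbata had 14602 ± 814, 14704 ± 192 and 14891 ± 508. The called gene was Psmb11, with 3511 ± 120, 2192 ± 449 and 1663 ± 89.5 (perimedullary minus subcapsular -1.07, SE 0.27, adjusted p = 0.0049).

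Among genes called higher in whole cortex, Car3 and Ogn had the largest differences towards the capsule. Car3, the carbonic anhydrase of muscle and fat, had 871 ± 502, 14.3 ± 8.99 and 17.4 ± 19.6 in subcapsular, central and perimedullary cortex (-4.30, SE 0.52, adjusted p = 1.4e-07). Ogn, the matrix proteoglycan osteoglycin, had 396 ± 56.6, 12.2 ± 5.44 and 15.5 ± 15.3 (-3.40, SE 0.38, adjusted p = 3.6e-08). Both were called in the main comparison too, Car3 with 622 ± 568 against 4.18 ± 2.39 in whole cortex and sorted cells. Aldh1a3 and Aldh1a1, retinaldehyde dehydrogenases that make retinoic acid, had 230 ± 33.3, 13.3 ± 20.2 and 14.7 ± 7.64 and 133 ± 16.4, 6.61 ± 1.7 and 7.29 ± 6.03 (log2 fold change -2.66, SE 0.39, adjusted p = 5.3e-06 and -2.26, SE 0.43, adjusted p = 0.00023). Dpep1, a dipeptidase, and Col14a1, a fibril-associated collagen, followed with log2 fold changes of -2.38, SE 0.53, adjusted p = 0.0013 and -2.32, SE 0.32, adjusted p = 1.7e-06. In the main comparison the calls of 2 of these genes rested on single arrays: Aldh1a1 (47.8 ± 39.1 against 5.01 ± 4.06, log2 fold change 1.07) was not called without whole cortex 3 (0.91), 4 (0.95) or 5 (0.94), nor Dpep1 without whole cortex 4 (0.94). Aldh1a1 (0.84) and Aldh1a3 (0.80) were not called with the subregion arrays set against sorted cells. Of 19 fibroblast genes 6 were higher in subcapsular cortex and 0 in perimedullary cortex.

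Towards the medulla the largest difference among these genes was that of Pla2g2d, a secreted phospholipase of dendritic cells and macrophages, with 99.9 ± 17.3, 214 ± 64.4 and 1577 ± 11.3 (3.68, SE 0.31, adjusted p = 8.2e-11). Gimap4 had 542 ± 13.7, 1527 ± 104 and 6957 ± 273, and Itgae, the integrin chain that binds E-cadherin, had 178 ± 11.6, 255 ± 33.9 and 2392 ± 329 (log2 fold change 3.62, SE 0.17, adjusted p = 3.6e-17 and 3.56, SE 0.20, adjusted p = 9.6e-16). Both genes had more signal in sorted medullary thymocytes (22838 to 33642 and 3984 to 7383) than on any perimedullary or whole cortex array. Clec7a, the glucan receptor dectin-1 of myeloid cells, had 159 ± 19.9, 239 ± 99.2 and 1655 ± 139, Fcgbp 53.4 ± 39.6, 236 ± 20.4 and 525 ± 79.2, and Ccl8, a monocyte chemokine, 66.8 ± 21.9, 78.5 ± 26.6 and 625 ± 29.5 (log2 fold change 3.19, SE 0.27, adjusted p = 1e-10, 2.89, SE 0.35, adjusted p = 1.6e-07 and 2.83, SE 0.35, adjusted p = 2e-07). Ccr7, not called in whole cortex, had 3.61, SE 0.22, adjusted p = 9.1e-15. Of 23 macrophage genes 9 were higher in perimedullary cortex, for example Lyz2, a lysozyme, with 940 ± 111, 1161 ± 12.2 and 3958 ± 258. The one that was lower there was Cd163, with 379 ± 30.2, 348 ± 180 and 82.9 ± 13.1 (-1.90, SE 0.42, adjusted p = 0.0013). Of 19 mature thymocyte genes 15 were higher in perimedullary cortex. Aire had 42.3 ± 6.13, 42.1 ± 22.8 and 122 ± 21.7, with a perimedullary excess that was called (1.10, SE 0.38, adjusted p = 0.038), and the summed signal of the medullary epithelial list was 1336 to 1570, 1637 to 1816 and 2699 to 3082 over the arrays of these regions. The part of medullary cells in these differences was not tested.

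**Figure D5:**
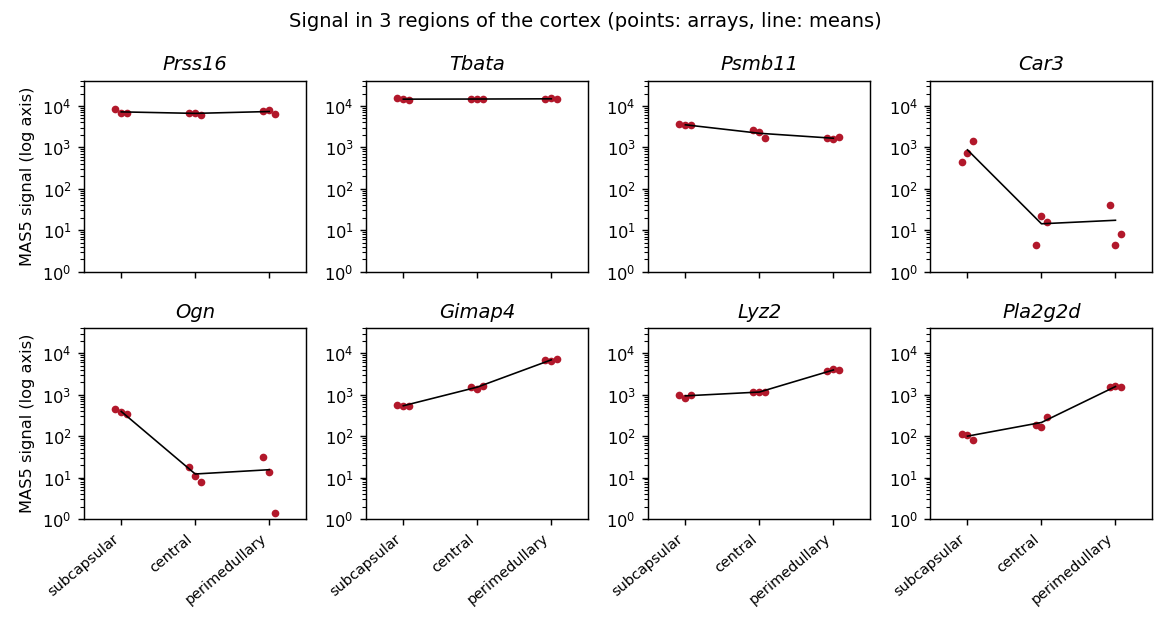
Signal of 8 genes that were called higher in whole cortex than in sorted thymocytes, on each array of subcapsular, central and perimedullary cortex (n = 3 each) with lines through the means, on a logarithmic axis. Means of Prss16 lie between 6622 and 7348 and those of Tbata between 14602 and 14891, Psmb11, Car3 and Ogn are highest under the capsule, and Gimap4, Lyz2 and Pla2g2d are highest next to the medulla.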

How the data were processed

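RNA of microdissected tissue and sorted cells was amplified from oligo-dT primers, labelled with biotin and hybridised to Affymetrix Mouse 430 2.0 arrays, 1 per sample. Per the submitters' processing notes the deposited signal intensity values were made with MAS5 in Affymetrix Expression Console 1.0; no genome build is given in the sources used here. From the 45037 deposited probe sets, 34945 had 1 gene symbol in the platform annotation, 932 several and 9160 none. The brightest probe set of each gene that exceeded the array median on at least 3 arrays was kept (13463 genes). Log2(signal + 26.2), the offset being the median over arrays of their lower quartile, was fitted with limma 3.58.1 under R 4.3.3. The model had a mean for each of 7 groups over all 33 arrays, which leaves 26 residual degrees of freedom. Precision is limited by the number of arrays. The fit was tested on simulated data. Named genes are the 12 largest changes in each direction among called genes whose arrays did not overlap, up to 4 leading called members of each of 36 lists, other members whose role is stated, and, for the other contrasts, the 6 largest differences in each direction among genes also called higher in whole cortex; Aire, Ccr7, Cd8b1 and Cd3d were given values outside this rule. Genes and lists were chosen with earlier results of these data known. Alternatives covered offset, scaling, filter, probe set choice, samples, block, weights and single arrays. Promoters were searched in RefSeq (GRCm38.p6).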

Additional observations from a re-analysis of the deposited data

Results flagged for a closer look

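One array stood apart from the rest of its group on the log2 scale in 28 of the 344 groups examined, 2 for each named gene, by Dixon's criterion, which chance alone meets in about 5% of groups. Many of these are signals below or near the offset. In whole cortex the signal was low for Aldh1a3 at 26.3 in array 2 (others 81 to 122), Cdh5 at 4 in array 5 (others 99.6 to 147), Pdgfra at 19.2 in array 1 (others 77.7 to 115), Pecam1 at 239 in array 3 (others 424 to 580), Plvap at 37.8 in array 7 (others 123 to 235), Spic at 108 in array 3 (others 209 to 306). It was high there for Itga6 at 2868 in array 3 (others 1700 to 2019), Klf4 at 323 in array 3 (others 139 to 165), Serping1 at 346 in array 5 (others 218 to 267). In the sorted cortical thymocytes it was high for Alas2 at 16.6 in array 4 (others 4.41 to 6.84), Ccl17 at 8.57 in array 4 (others 4.27 to 5.4), Cd36 at 17.3 in array 5 (others 2.35 to 4.83), Cdh5 at 52.2 in array 1 (others 3.55 to 11.8), Dpep1 at 31.8 in array 4 (others 5.45 to 7.45), Dsc2 at 15.7 in array 3 (others 0.975 to 2.12), Gpx3 at 64.6 in array 2 (others 10.7 to 17.4), H2-Ab1 at 271 in array 4 (others 145 to 174), Itgae at 95.5 in array 5 (others 55.1 to 61.7), Krt14 at 59.5 in array 5 (others 6.32 to 13.7), Pdgfra at 19.2 in array 3 (others 1.54 to 4.6), Slc40a1 at 31.8 in array 4 (others 4.05 to 7.48), Wnt4 at 28.9 in array 1 (others 12.1 to 15.7). It was low there for Cyp26b1 at 4.08 in array 2 (others 12.9 to 16.7), Epcam at 104 in array 2 (others 160 to 174), Gpc2 at 119 in array 2 (others 156 to 172), Hspa1b at 0.678 in array 1 (others 28.9 to 40.6), Krt18 at 43.8 in array 5 (others 91 to 100), Nqo1 at 5.57 in array 2 (others 40.2 to 52.6).

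The difference in tissue excess between cortex and medulla was called by the interaction term in limma for the following genes, most of which were named for the size of this difference. It was larger in cortex, in log2 units, for Cxcl12 (3.61), Inmt (3.82), Isg20 (3.35), Plekhb1 (3.55), Prss16 (5.45), Psmb11 (4.35), Slc40a1 (2.96), and smaller for Aire (-4.92), Ccl22 (-5.26), Cxcl9 (-5.17), Fcgbp (-5.32), Fscn1 (-5.19), Gpx3 (-4.97), Krt14 (-4.69).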

How the results depend on the processing

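Of the 172 named genes 126 were called higher and 11 lower, and 108 of these kept sign and call in every alternative that tested them. Not every alternative tested all named genes. The stricter filter held 145 of the 172, and some were absent when probe sets with special suffixes were left out. The run over single probe sets was not part of this count. The genes called higher numbered 764 under the stricter filter on weak signals, which tested fewer genes, 2027 with the subregion arrays in place of whole cortex and 2172 when all 30045 probe sets were tested singly. Lower calls numbered 856 with arrays scaled to equal medians, 428 with the replicate number as a block, 427 with whole cortex 1 to 5 only, 29 with whole cortex 6 and 7 only, 912 with the subregion arrays and 1562 over single probe sets. The replicate block, which uses only arrays 1 to 5 of each group, gave 1430 higher calls and kept 1229 of the 1288 and 201 of the 203. The numbers pair no arrays by the labels: correlations of same-numbered deviations were -0.0674 to 0.0193 between whole cortex and sorted samples, and -0.0483 to 0.101 between perimedullary and subcapsular arrays, where the block gave 442 higher and 252 lower genes. Genes with a larger excess in cortex numbered 526 with equal medians, those with a smaller one 881 under the stricter filter, and genes lower in perimedullary cortex 489 with equal medians. Single arrays left out gave 1259 to 1363 higher and 156 to 293 lower genes, 266 to 348 and 1647 to 1759 for a larger or smaller cortical excess, and 334 to 397 and 182 to 255 for higher or lower in perimedullary cortex. Among named genes called in the main fit or the alternative, 7 changed sign with the subregion arrays. These were Bmp7 (1.16), Cd3d (-2.21), Cd8b1 (-3.30), Psmb9 (-0.37), Rps14 (-0.71), Vps33b (0.0088) and Wdr48 (0.52). Tgfb1 did so with whole cortex 6 and 7 only (0.0903). A further 11 named genes with the subregion arrays and 6 with whole cortex 6 and 7 only changed sign without a call in either fit. The 11 included Rag1 (-0.67), Ptprc (-0.62) and Thy1 (-0.57). The cause was not tested. The subregion fit and the single probe sets were chosen after seeing the data. Signals near the offset of 26.2 have compressed folds, so values below it carry no order.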

Other observations

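3 lists of thymocyte and general cell functions that gave few or no calls between whole cortex and sorted thymocytes differed between regions of the cortex. Of 29 cell cycle genes 10 were lower and 0 higher in perimedullary than in subcapsular cortex. Sterol synthesis genes were lower in 8 of 13 cases and higher in 0. Immediate early genes were higher in 7 of 21 cases and lower in 0, among them Egr1 with 2625 ± 448, 5795 ± 464 and 7228 ± 111 and Fos with 203 ± 31.2, 397 ± 24.2 and 460 ± 89.4 in subcapsular, central and perimedullary cortex (n = 3 each). Over all genes 1.66% were lower and 2.91% higher in perimedullary cortex. Sorted cortical thymocytes had 4778 ± 790 for Egr1 and 174 ± 29.9 for Fos (n = 5).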
